A study of Mus musculus with 2 samples.

Results

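Mouse chromosome 11 held 3622 of the 31497 MEF2A peaks in the optimal set, 11.5% of the set. The optimal set is the list of peaks that the irreproducible discovery rate (IDR) procedure kept because they ranked alike across repeated lists. Members were all peaks of that set on chromosome 11 (mm10). The chromosome was selected on its number of optimal peaks, so count and density are given as a description, with no test. The peaks came from ChIP-seq with a MEF2A antibody in CH12.LX, an immortalized line from a female B-cell lymphoma of the mouse strain B10.H-2aH-4bp/Wts, with no treatment given in the labels. Both biological replicates, numbered 1 and 2, came from separate biosamples of the same line and form 1 group. The files are peak lists, so read depth is unknown, and the library used as control was not analysed here.

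MEF2A is a MADS-box transcription factor that binds as a dimer to an AT-rich element, CTA, 4 A or T bases and TAG in its strict form. In lymphocytes MEF2 factors are held in check by class IIa histone deacetylases, which leave the nucleus on signals from the antigen receptor. Chromosome 11 of the mouse is rich in genes and carries several regulators of lymphocytes, among them Ikzf1, Ikzf3, Ebf1, Rel and the cytokine genes Il4 and Il13.

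The MEF2 element itself lay at several of the strongest peaks of the chromosome, both at promoters and over 10 kb from every protein-coding start. The sequences that follow show it in capitals with its flanks in lower case. The consensus searched also allowed T as the first base and A as the last, on either strand. The first set are the strongest optimal peaks whose summit fell in a promoter window (250 bases before to 50 after a start) of the RefSeq table (GRCm38.p6, which is mm10) and that held the consensus, written 5′ to 3′ on the strand of the gene.
Hdac5, signal 325, element starting 20 bases before the start, minus strand, chr11:102230173-102230202: gggtctgagcCTATTTTTAGctcggggtcg
Ankrd40, signal 322, 118 bases before the start, plus strand, chr11:94327858-94327917: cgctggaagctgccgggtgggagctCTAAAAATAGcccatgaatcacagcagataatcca
Per1, signal 283, 15 bases before the start, plus strand, chr11:69100127-69100156: gcccggaagcCTAAATATAGgaggcgatca
Tnfrsf13b, signal 244, 17 bases before the start, plus strand, chr11:61126728-61126757: aaatctcaggCTAATAATAAacgccctgag
The strength column of the files, called signal here, holds values the authors gave each peak, and ranks peaks only within 1 list. Hdac5 encodes a class IIa histone deacetylase, Per1 a component of the circadian clock and Tnfrsf13b the receptor TACI, which binds the B cell survival factors BAFF and APRIL. The Per1 and Tnfrsf13b elements lay beside starts that differ from the outermost start of those genes.

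Of 444 promoter windows on chromosome 11 that held an optimal summit, 6 held the consensus (1.35%). With or without a peak, 31 of all 1561 windows on chromosome 11 held it (1.99%), and 2.62% of 20084 windows of all autosomal protein-coding genes. The remaining 2 of the 6 belonged to Hexim1 (signal 84.7) and Ccnq (43.2). The share was 1.64% over the windows with a summit on the other 18 autosomes.

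Distal elements were read from the separate peak list on mm9, since the genome sequence in hand is NCBIM37 (mm9). Each is on the plus strand and belongs to one of the strongest mm9 peaks of chromosome 11 that lay over 10 kb from every protein-coding start and held the consensus within 50 bp of the summit. The nearest gene is named, with the distance of the peak summit, not of the element, from its start.
Rnft1, rank 21 in the mm9 list, 55525 bp upstream, chr11:86242618-86242677: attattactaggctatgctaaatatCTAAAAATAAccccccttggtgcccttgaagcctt
Phf15, rank 30, 12526 bp downstream and inside the gene, chr11:51658347-51658376: aggttcaagtCTATTTTTAGgtacaaagcc
Csf2, rank 276, 35014 bp downstream, chr11:54028133-54028192: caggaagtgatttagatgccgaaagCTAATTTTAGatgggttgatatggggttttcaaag
Pttg1, rank 363, 125230 bp downstream, chr11:43111192-43111251: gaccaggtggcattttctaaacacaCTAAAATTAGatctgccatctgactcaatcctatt
Ebf1, rank 497, 43843 bp downstream and inside the gene, chr11:44475502-44475561: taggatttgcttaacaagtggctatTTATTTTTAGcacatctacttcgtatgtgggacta
Phf15 is named Jade2 in the RefSeq table and encodes a PHD finger protein. Csf2 encodes the cytokine GM-CSF, and Ebf1 a factor that commits cells to the B lineage. In the same list a further Hdac5 element stood at an internal start of the gene, in the mm9 peak of rank 19. The distance given for it is again that of the summit.
Hdac5, 46 bp upstream of that start, chr11:102080272-102080331: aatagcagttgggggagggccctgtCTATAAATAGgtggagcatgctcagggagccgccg

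Most mm9 peaks of chromosome 11 carried no consensus match. It was present at 117 of 2052 peaks (5.70%, 95% Wilson interval 4.78 to 6.79, which covers counting error only). Over all autosomes the share was 7.12%, and it ran from 4.44% to 10.8% on the other 18, so that chromosome 11 stood 18th of 19. By strength the share on chromosome 11 was 10.9% among the strongest 20% of the mm9 list and 3.45% among the weakest 20%. On the other autosomes those shares were 14.7% and 3.73%. Promoter peaks of this list lay within 1 kb of any protein-coding transcript start of GENCODE vM1. Distal ones lay over 10 kb from all such starts. At promoter peaks the element was found at 3.33% on chromosome 11 and 3.12% elsewhere, and at distal peaks at 6.69% (95% Wilson interval 5.26 to 8.47) and 8.57%. The commonest form on chromosome 11 was CTAAAAATAG with its reverse complement CTATTTTTAG, at 24 peaks, as at the Hdac5 and Ankrd40 promoters. CTAAAAATAA with TTATTTTTAG, the form of the Rnft1 and Ebf1 elements, followed at 21.

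Motifs of 6 other kinds were counted as a description. Each was searched on both strands within 50 bp of the mm9 summit, and a peak can match several. AP-1 (TGANTCA) matched 10.2% of chromosome 11 peaks (95% Wilson interval 8.95 to 11.6), against 12.5% on the other autosomes. At distal peaks it matched 13.6% (11.5 to 15.9) against 15.6%, and from 1 to 10 kb 11.3% (8.91 to 14.3) against 12.8%. At promoter peaks it matched 3.50% against 3.42%. Promoter peaks made up 571 of 2052 mm9 peaks on chromosome 11 and 3016 of 14608 elsewhere. Over all classes, PU.1 (GAGGAAGT) matched 2.63% (2.02 to 3.42) against 3.30%, and RUNX (TGTGGTTT) 2.44% (1.85 to 3.20) against 2.89%. The octamer (ATGCAAAT) matched 2.44% (1.85 to 3.20) against 3.20%, at the upper end of its interval. An E-box form (CAGCTG) matched 9.21% (8.03 to 10.5) against 9.23%. The GC box (GGGGCGGGG) matched 1.66% (95% Wilson interval 1.19 to 2.31), the highest share of the 19 autosomes, against 1.12% on the others together, which ran from 0.605% to 1.63%. Most of these matches were at promoter peaks, at 28 of 571 (4.90%), against 4.05% of promoter peaks elsewhere. The mean GC content around the summit was 52.9% on chromosome 11 and 50.4% on the other autosomes. At promoter peaks alone it was 61.4% and 61.3%.

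Peaks were denser on chromosome 11 than on every other autosome, in each class of distance to a transcription start site (TSS). The chromosome had 30.5 optimal peaks per Mb of the span covered by the pooled list. The other 18 autosomes together had 12.1, a ratio of 2.52, and ran from 9.29 on chromosome 14 to 17.2 on chromosome 16. Promoter peaks, with a summit within 1 kb of a protein-coding TSS, numbered 832 and reached 7.01 per Mb, 2.67 times the 2.62 of the others. Peaks from 1 to 10 kb numbered 964 (8.12 per Mb, 3.45 times). Distal peaks, over 10 kb from every TSS, numbered 1826 (15.4 per Mb, 2.16 times). Chromosome 19 had the next highest density of promoter peaks (4.51 per Mb) and chromosome 16 of distal peaks (11.3 per Mb). Distal peaks made up 50.4% of the members and 58.8% of the peaks on the other autosomes. The ratio of distal peaks was 1.50 when only summits over 50 kb from a TSS were counted.

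**Figure D1:**
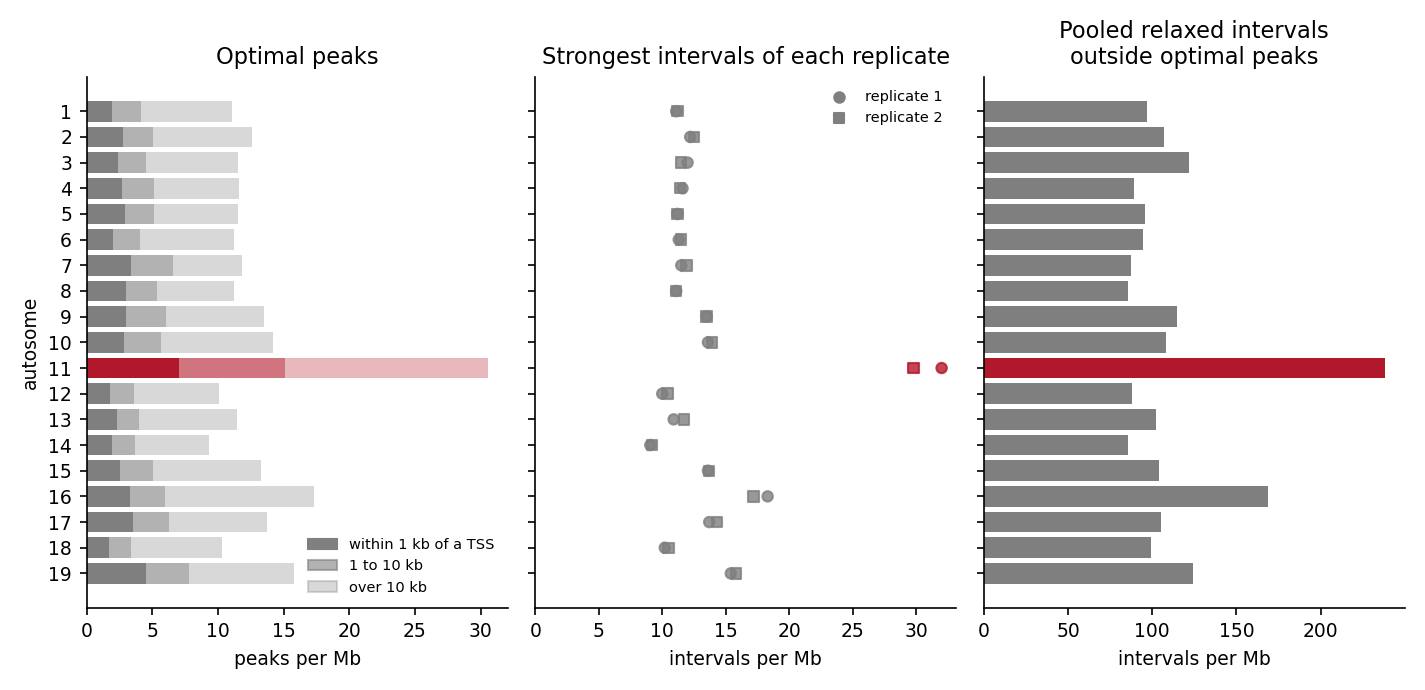
Peaks or intervals per Mb (x axes) on each of the 19 autosomes (y axis), with chromosome 11 in red: optimal peaks by distance to a TSS as stacked bars (left), the strongest intervals of each replicate, as many as the optimal set holds, as points (middle), and pooled relaxed intervals outside optimal peaks as bars (right). Chromosome 11 stands above the others in all 3 panels, at 30.5, at 32.0 and 29.8, and at 238 per Mb.

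Both replicate lists had the same excess. When the 31497 strongest intervals of each were taken, 3798 of replicate 1 and 3540 of replicate 2 lay on chromosome 11. These were 32.0 and 29.8 per Mb, 2.66 and 2.46 times the other autosomes. The conservative IDR set gave 27.5 per Mb (2.54 times) and the mm9 list 17.3 per Mb (2.70 times). These lists come from the same 2 libraries. Of the members, 2455 (67.8%) overlapped an interval among the strongest in both replicates by 1 bp or more, 959 in 1 replicate and 208 in neither. On the other autosomes 64.3% did so in both.

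Weak intervals were also denser on chromosome 11. The pooled relaxed list holds peaks and background, and 28253 of its intervals on chromosome 11 overlapped no optimal peak. Their density was 238 per Mb, 2.31 times the 103 of the other autosomes, which ran from 85.7 to 169. Those over 50 kb from every TSS stood at 69.0 per Mb against 39.4 (1.75 times), and chromosome 16 had more (74.6). Among the 1000 strongest intervals of replicate 1, 13.2% lay on chromosome 11, and among those ranked from 200001 to 300000 the share was 8.06%. For replicate 2 the shares were 12.4% and 8.56%. The chromosome makes up 4.96% of the autosomal span. Optimal peaks numbered 11.2% of the pooled relaxed intervals on chromosome 11 and 10.4% on the others, which ran from 8.58% to 11.8%. The part of this background in the peak density was not tested.

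**Figure D2:**
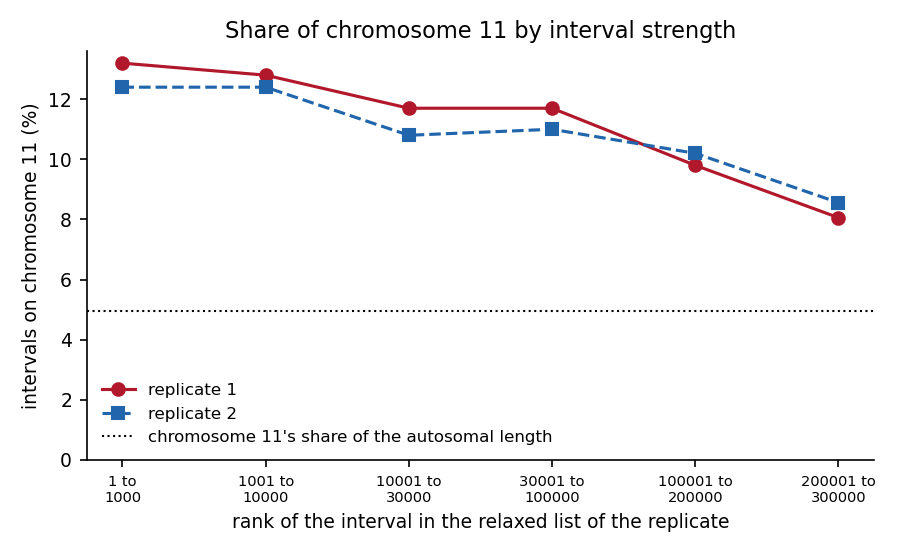
Share of intervals on chromosome 11 in percent (y axis) by rank of the interval in the relaxed list of each replicate (x axis), with the share of chromosome 11 in the autosomal length, 4.96%, as a dotted line. Both replicates lie above that line at every rank, from 13.2% and 12.4% among the strongest 1000 to 8.06% and 8.56% among the weakest.

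Gene content differed from the other autosomes by less than peak content did. Chromosome 11 had 13.4 protein-coding TSSs per Mb, 1.63 times the 8.23 of the others, and only chromosome 7 had more (14.2). Per TSS it had 2.28 optimal peaks against 1.47 (1.55 times), and chromosome 16 had 2.43. Promoter peaks per TSS were 0.523 against 0.319, where the others ran from 0.240 on chromosome 7 to 0.468 on chromosome 16. When 1 Mb bins of the other autosomes with like numbers of TSSs served as the reference, 1856 peaks would fall on chromosome 11, and the 3622 observed were 1.95 times that. The ratio was 1.63 for promoter peaks and 2.01 for distal peaks. Measured in the same way, the relaxed intervals outside optimal peaks were 1.99 times their reference.

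The difference held in each class of bins with at least 1 TSS. In bins with 11 to 20 TSSs, chromosome 11 averaged 46.0 peaks over 24 bins and the others 19.9 over 387. In bins with over 40 TSSs the means were 59.9 over 8 bins and 32.2 over 37, and in those with 1 or 2 they were 5.85 over 13 and 4.05 over 475. Bins with no TSS went the other way, with 0.455 peaks over 11 bins against 1.42 over 271. Relaxed intervals outside optimal peaks were nevertheless denser in those gene-free bins, at 48.6 against 26.3 per bin, where single autosomes ran from 9.28 to 54.9.

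**Figure D3:**
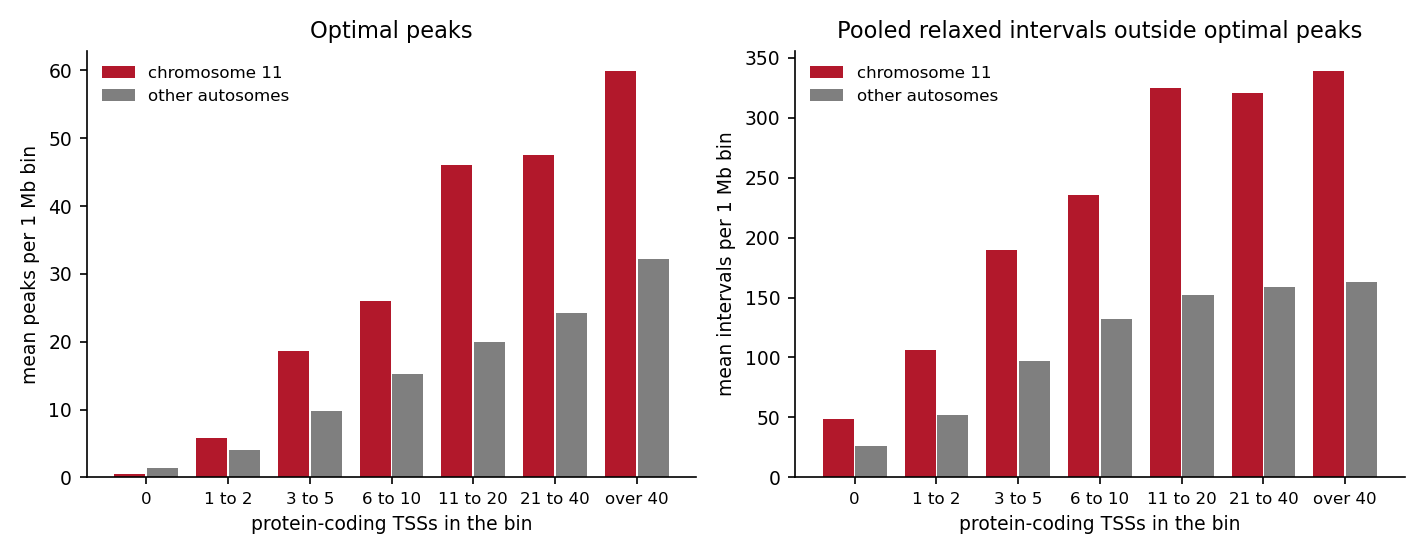
Mean number of optimal peaks (left) and of pooled relaxed intervals outside optimal peaks (right) per 1 Mb bin (y axes) by the number of protein-coding TSSs in the bin (x axes), for chromosome 11 (red) and the other autosomes (grey). Chromosome 11 is higher in each class except for optimal peaks in bins without a TSS (0.455 against 1.42).

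The excess was spread over many bins of the chromosome, though those below 40 Mb, a limit chosen after the data were seen, held only 5.72% of it. Its 119 bins of 1 Mb held 30.4 ± 25.3 peaks (SD over bins) and the 2290 bins of the other autosomes 12.0 ± 13.3. The medians were 29.0 and 8.00, and the 90th percentiles 67.2 and 31.0. On chromosome 11, 83 bins (69.7%) were above the other autosomes' mean of 12.0, while 37.3% of the other bins were. Against the mean of bins with a like number of TSSs, 81 were above, compared with 36.0% of the other bins. The net excess over 12.0 per bin came to 2192 peaks, of which 522 were promoter peaks (23.8%), 686 lay from 1 to 10 kb (31.3%) and 985 were distal (44.9%).

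The 10 densest bins held 796 peaks, 22.0% of the chromosome's peaks and 30.8% of the net excess. It took the 18 densest bins to reach 50% of the net excess and the 51 densest to reach all of it. Peaks were less concentrated in the top bins than on any other autosome, where the same share of bins held from 26.2% to 33.1% of the peaks. At the other end, 14 bins (11.8%) held no optimal peak, against 21.1% elsewhere. The first of these runs from 7 to 8 Mb and the last from 92 to 93 Mb. Of the 50 densest bins of all autosomes, 25 were on chromosome 11. The densest bin on another autosome, with 100 peaks, was at 80 to 81 Mb of chromosome 10.

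**Figure D4:**
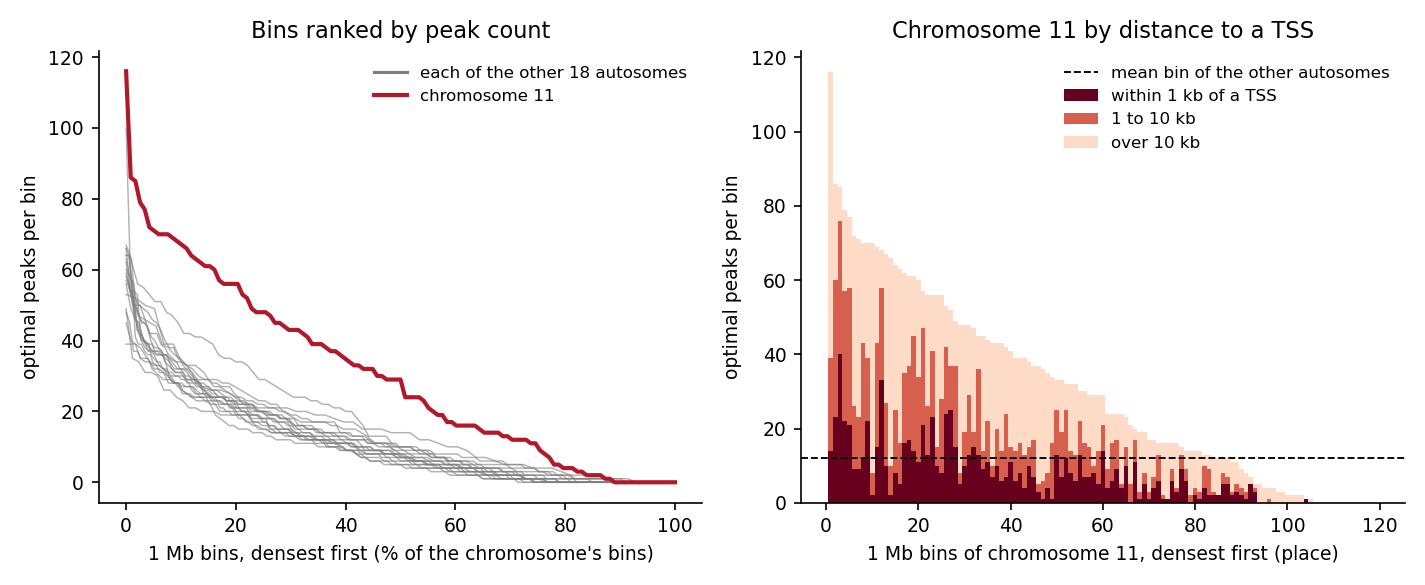
Optimal peaks per 1 Mb bin (y axes) with bins ordered from the densest (x axes): chromosome 11 in red and each other autosome in grey (left), and the bins of chromosome 11 split by distance to a TSS, with the mean of the other autosomes, 12.0, as a dashed line (right). Chromosome 11 runs above the grey lines over most of its bins, and 83 of its 119 bins pass the dashed line.

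Both replicates placed the peaks in the same bins. Counts of the strongest intervals per bin were higher in replicate 1 in 65 bins, higher in replicate 2 in 30 and equal in 24, with a median difference of 2.00 intervals. Of the 10 densest bins, 9 were among the 10 densest of replicate 1 and 8 among those of replicate 2. Spearman's rho between the replicates over the 119 bins was 0.987; the bins differ in gene content, which both replicates share.

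**Figure D5:**
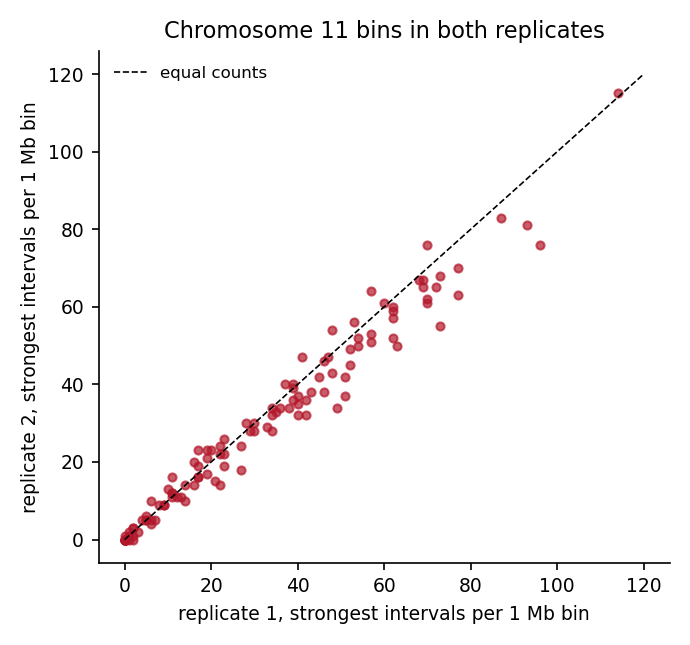
Strongest intervals per 1 Mb bin of chromosome 11 in replicate 1 (x axis) and replicate 2 (y axis), 1 point for each of 119 bins, with a dashed line at equal counts. The bin at 117 to 118 Mb stands apart at 114 and 115 intervals.

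The densest bin, at 117 to 118 Mb, was filled mostly by distal peaks. It held 116 optimal peaks, with 114 intervals in replicate 1 and 115 in replicate 2. Only 14 were promoter peaks, and 77 were distal. Of these, 45 had Septin9 as the nearest gene, which encodes a cytoskeletal GTPase, 12 had Tnrc6c, a gene of the microRNA silencing machinery, and 11 had Sec14l1. The strongest peak of the bin (signal 199) lay inside Tnrc6c, 24636 bp from its TSS. Within 10 kb of a TSS, 6030468B19Rik had 8 peaks, Sec14l1 had 7 and Pgs1 had 5. The bin has 14 TSSs and had 5.82 times the peaks of like bins elsewhere; its relaxed intervals outside optimal peaks were 3.11 times theirs.

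Bins at 108 to 109 Mb and 88 to 89 Mb were of the same kind, each with most of its distal peaks nearest to 1 long gene. The first held 70 peaks with 4 TSSs (7.14 times the mean of like bins). Its relaxed intervals outside optimal peaks were 3.78 times those of like bins. Of its 62 distal peaks 36 were nearest to Prkca, which encodes protein kinase C alpha, and 11 to Axin2, a negative regulator of Wnt signalling. Its strongest peak (signal 381) lay inside Prkca, 189729 bp from the TSS. The second held 71 peaks, 48 of them distal, and 29 of those were nearest to Msi2, which encodes an RNA-binding protein of blood stem cells and held the strongest peak (229.8). Within 10 kb of a TSS, Axin2 had 5 peaks, Prkca had 2 and Cep112 had 1, while Cuedc1 and Scpep1 had 4 each and Coil had 3.

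Bins with many genes held more promoter peaks. The bin at 69 to 70 Mb had 85 peaks with 63 TSSs, and 40 were promoter peaks against 9 distal ones. Its strongest peak (signal 283) lay inside Per1, 5029 bp from the outermost TSS. Tmem107 had 8 peaks within 10 kb, and Per1 and Eif4a1, which encodes a translation initiation helicase, had 7 each. At 115 to 116 Mb there were 86 peaks with 42 TSSs, 23 of them at promoters. Slc9a3r1 had 6 peaks within 10 kb, and Rab37 and Mrpl58 had 5 each. A peak of signal 311 lay inside Rab37, which encodes a GTPase of vesicle traffic. The neighbouring bins at 97 and 98 Mb held 79 and 77 peaks, 22 and 21 of them at promoters. At 97 Mb the genes with most peaks were Arl5c (9), Scrn2 (6) and Plxdc1 (6), and the strongest peak (139) was near Kpnb1. At 98 Mb they were Ikzf3 and Mien1 with 8 each and Zpbp2 with 7.

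The remaining 3 of the 10 lay at 61, 106 and 54 Mb. At 61 to 62 Mb, 70 peaks included 15 within 10 kb of the TSS of Grap, an adaptor of lymphocyte signalling, 9 of Tnfrsf13b and 6 of Fam83g. At 106 to 107 Mb, 70 peaks included 6 near Polg2 and 5 each near Cep95 and Cd79b, which encodes a signalling chain of the B cell receptor, with the strongest (214) 4318 bp from the Cd79b TSS. The bin at 54 to 55 Mb held 72 peaks, 46 of them distal. Csf2 was the nearest gene of 16, Cdc42se2 of 10 and P4ha2 of 8. Cdc42se2 had 6 peaks within 10 kb of its TSS, and Acsl6 and Tnip1, which encodes an inhibitor of NF-kB signalling, had 4 each. The strongest peak (414) lay 158 bp upstream of Rapgef6.

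Genes on chromosome 11 had peaks more often than genes elsewhere, and more of them. Of 1592 protein-coding genes, 1011 (63.5%) had an optimal summit at most 10 kb from their TSS. Over all 20320 autosomal genes the share was 44.6%, and chromosome 16 had the next highest (53.0%). Within 1 kb, 683 genes had a peak (42.9%) against 29.7% of autosomal genes. At least 6 peaks within 10 kb were found at 68 genes (4.27%), against 0.780% of genes on the other autosomes, and 581 genes (36.5%) had none, against 57.0%. Neighbouring genes can share a peak.

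Grap stood first, with 15 optimal peaks within 10 kb of its TSS and 15 strongest intervals in each replicate. Rnf157, a ubiquitin ligase gene, and Cbx8, which encodes a Polycomb subunit, had 10 each. For Rnf157 both replicates gave 8, but for Cbx8 both gave 3, and its strongest peak had a signal of 48.7. Tnfrsf13b, Ebf1, Arl5c and Ksr1, the last a scaffold of the MAP kinase cascade, had 9 each. The replicates gave 9 and 8 for Tnfrsf13b, 11 and 13 for Ebf1, 6 and 8 for Arl5c and 4 and 6 for Ksr1. Il4, Ikzf3 and Dusp14, a phosphatase gene, had 8 each, with strongest signals of 290.5, 241 and 194. The strongest Il4 peak was also within 10 kb of Il13.

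Long gene bodies held further groups of peaks. These genes were chosen after their values were seen. Prkca held 46 peaks over 411 kb (46 and 44 strongest intervals in replicates 1 and 2), Ebf1 40 (34 and 39), Septin9 34 (34 and 32) and Msi2 33 (34 and 32). Ikzf1, which encodes the founding Ikaros factor, held 21 over 88.0 kb, with 27 in replicate 1 and 15 in replicate 2, a wider spread than at the other genes named here. Jade2 held 18 over 45.6 kb, 39.5 per 100 kb, with 18 and 16 in the replicates. Of the 20 autosomal genes with most peaks in the gene body, 6 were on chromosome 11. That chromosome has 1592 of the 20320 autosomal protein-coding genes and 11.5% of the optimal set. The gene body with most peaks, 51, was on another autosome.

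Of the 20 strongest members 14 were distal, where 50.4% of all members were. The first, with signal 457 and rank 6 in the whole set, lay 9490 bp upstream of Wfdc21 (chr11:83737297-83737592). It ranked 5th in replicate 1 (signal 219) and 7th in replicate 2 (243). Next came a peak 55377 bp upstream of Spdl1 (chr11:34888879-34889179, signal 429.6), with 197 in replicate 1 and 232 in replicate 2. A peak inside Grb10 with Ddc as the nearest TSS (419) had 179 and 238, and that at the Rapgef6 promoter (414) had 182 and 232. A peak inside Hdac5 (412) had 172 and 240.1, with ranks 27 and 8. It lay 11197 bp from the outermost TSS and so counts as distal. The mm9 peak of rank 19 inside the same gene was classed as a promoter peak, being 46 bp from an internal start. Signals of the replicates are on separate scales and are compared by rank. Grb10 encodes an adaptor that dampens growth factor signalling, and Rapgef6 an exchange factor for Rap GTPases. A second peak inside Grb10 had a signal of 345.

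Others of the 20 strongest had a wide range of nearest genes. A peak of signal 377 lay 34229 bp upstream of Ccr7, a homing receptor gene, with ranks 71 and 15 in the replicates. One of 367 lay 17196 bp upstream of Tnfrsf13b (ranks 28 and 97). Another of 321 lay inside Rad50, a DNA repair gene known for control elements of the neighbouring cytokine genes, 22314 bp from the Il13 TSS. Further ones had Rnft1 (391), Prkca (381), Kcnj2 (370.4), Jade2 (363), Rnf157 (342), Glp2r (333), Larp1 (326), Ankrd40 (322) and Snx11 (318) as nearest genes, besides the Hdac5 promoter (325). In replicate 1 the 20 ranked between 5 and 154, and in replicate 2 between 7 and 144.

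Signal on chromosome 11 was close to that elsewhere at distal peaks and higher at promoters. The median over all members was 36.6, with quartiles of 25.5 and 56.3, and over the other autosomes it was 34.7, ranging from 32.7 to 37.3. Distal peaks had medians of 37.7 and 36.9. Promoter peaks had medians of 36.3 and 31.1, and the other autosomes ran from 29.9 to 34.9, so that chromosome 11 was the highest of 19. Among the strongest 20% of the whole set, chromosome 11 held 20.1% of promoter peaks and 9.88% of distal peaks. Among the weakest 20% it held 10.4% and 10.7%. Neighbouring summits on chromosome 11 were a median of 6.60 kb apart, against 14.4 kb on the other autosomes, and 45.5% of gaps were under 5 kb against 33.7%.

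A list of transcription factor genes that act in B lymphocytes also holds broadly expressed ones such as Trp53. Of its 12 genes, 12 had a peak within 10 kb, where 44.6% of autosomal and 63.5% of chromosome 11 genes did, and the median was 3.50 peaks per gene. The strongest were at Ikzf3 (241), Rel (165), which encodes an NF-kB subunit, Stat3 (163) and Irf1 (98.1). All 12 also had an interval in each replicate, and 8 had an optimal peak within 1 kb. Among 21 genes listed as lymphocyte receptors, kinases and adaptors 20 had a peak and 18 had 1 within 1 kb. Hdac5 (325), which is a histone deacetylase gene and none of these, came first, followed by Grap (282), Tnfrsf13b (244) and Cd79b (214), and Grb10 was the one without a peak near its outermost TSS, although its body held 15. These lists were made with earlier results of these data known.

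The next lists are read beside the 63.5% of chromosome 11 genes and 44.6% of autosomal genes with a peak within 10 kb. All 7 ribosomal protein genes had one, with Rpl23 (114), Rpl23a (104), Rpl27 (101) and Rps27a (72.6) strongest. In the list of DNA replication and mitosis 12 of 14 (85.7%) did, led by Tk1 (104), the thymidine kinase gene, Birc5 (66.2), Rad51c (63.7) and Top2a (55.8). Aurkb and Kpna2 had none, although Kpna2 had 2 strongest intervals in replicate 1 and 1 in replicate 2. For RNA processing and translation 7 of 10 (70.0%) had a peak, near the share of the chromosome, led by Eif5a (69.5), Eif1 (63.3), Eif4a1 (63.3) and Ddx5 (62.2), while Prpf8, Srsf1 and Srsf2 had none. Of 9 immunity-related GTPase genes, which act against intracellular microbes, 5 (55.6%) had a peak, below that share, led by Irgm2 (109), Irgm1 (98.1), Igtp (83.8) and Gm12250 (50.7). Gm12185, Ifi47, Tgtp1 and Tgtp2 had none. In the Schlafen family 6 of 8 did, with Slfn2 (105), Slfn8 (79.0), Slfn14 (63.1) and Slfn3 (53.7) strongest and Slfn4 and Slfn5 without.

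In 6 lists of genes best known from other tissues, the share with a peak was below the 63.5% of chromosome 11 genes and the 44.6% of autosomal genes. Among 83 olfactory receptor genes 4 had a peak within 10 kb (4.82%), at Olfr314 (82.9), Olfr1371 (32.5), Olfr311 (27.9) and Olfr1393 (23.9). Of 26 type I keratin genes 4 did (15.4%), at Krt28 (75.1), Krt17 and Krt42, which share a peak (23.2), and Krt24 (21.4). Keratin-associated genes had 8 of 23 (34.8%), with Krtap3-1 and Krtap3-2 sharing a peak of 143, then Krtap3-3 (107) and Krtap16-1 (73.5). In the Hoxb cluster 3 of 10 did (30.0%), at Hoxb13 (53.2) and at Hoxb6 and Hoxb7, which share a peak (20.1), while each replicate list marked 6. Striated muscle is a known site of MEF2 action, and of its myosin heavy chain genes 2 of 6 (33.3%) had a peak, at Myh2 (52.9) and Myh13 (40.9), with Myh1, Myh3, Myh4 and Myh8 without a peak. Genes of the nervous system had 4 of 13 (30.8%), led by the serotonin transporter gene Slc6a4 (136), then Grin2c (82.8), Gabrb2 (35.9) and Aspa (35.5).

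Lists of genes of other blood cells lay on both sides of the chromosome's 63.5%. Among 10 cytokine genes and neighbours of such genes, not all of 1 locus, 7 (70.0%) had a peak, near that share. They were led by Il13 and Il4 (290.5), Csf2 (57.8) and Rad50 (42.2), and Il5, Kif3a and Slc22a4 had none. CC chemokine genes had 5 of 11 (45.5%), at Ccl1 (84.0), Ccl3 and Ccl4 (a shared peak of 80.8), Ccl5 (44.9) and Ccl6 (34.1). The CD300 family, mostly myeloid receptors, had 3 of 11 (27.3%), at Cd300lf (78.8), Cd300lg (35.7) and Cd300a (32.9). Of genes that mark T cells, Havcr2 (98.6), Cd7 (38.8) and Tbx21 (30.3) had a peak within 10 kb. None of these had one within 1 kb, where 42.9% of chromosome 11 genes did, and neither had any gene of the CD300 family. No share within 10 kb is given for the T cell genes, so they are not read beside the 63.5%. Tcf7 had no optimal peak within 10 kb, although each replicate had 1 strongest interval there. Of 5 genes listed with the myeloid lineage, not all of them markers of it, 2 had a peak, at Cd68 (57.8) and Mpo (26.3). Csf3, Epx and Lpo had none. Erythroid and platelet genes had 5 of 7 (71.4%), also near it, at Itga2b (73.4), Hba-x (48.8), Gp1ba (44.4), Itgb3 (36.5) and Slc4a1 (32.0), and the alpha globin genes Hba-a1 and Hba-a2 had none.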

How the data were processed

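MEF2A ChIP-seq of CH12.LX cells was deposited as peak lists for 2 biological replicates. Per the deposited text files, each replicate and the pool have a relaxed list called with a control file (300000 intervals each), and the optimal and conservative IDR sets on mm10 were derived from them; the mm9 list came from the mm9 alignments of both replicates. Which caller and settings were used is not given in the sources used here. Signal values, as deposited, served as ranks within a list; the deposited score column only broke ties.

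Peaks were counted by summit in 1 Mb bins over the span of the pooled list. TSSs were the outermost ends of RefSeq protein-coding genes (GRCm38.p6), with strand from the RefSeq promoter table or, by symbol, GENCODE vM1, for 21264 of 21627 genes (98.3%; 98.9% on chromosome 11). These TSSs served the mm10 lists. For the mm9 list, classes of distance used the starts of all protein-coding transcripts of GENCODE vM1. Its ratio per TSS used the number of GENCODE protein-coding genes. The MEF2 consensus allows C or T before TA, 4 A or T bases, then TAA or TAG, on either strand. Promoter windows matched 1561 starts on chromosome 11. No test was made: with 1 group of 2 samples and a chromosome chosen for its count, values are described. Members and gene lists were chosen with earlier results of these data known. Genes named are the nearest or containing genes of the 20 strongest peaks, the 3 genes with most peaks in each of the 10 densest bins and the gene at the bin's strongest peak, the 10 genes with most peaks, and from each list the 4 strongest and, where 4 or fewer lack a peak, those without; others, and genes named as nearest to distal peaks of a dense bin, were chosen after their values were seen. A gene that the naming rule gives is not reported here. Counting and motif code was tested on simulated data. The work ran in Python 3.11.15 with pandas 2.3.3, numpy 2.4.6, matplotlib 3.10.9 and scipy 1.17.1.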

Additional observations from a re-analysis of the deposited data

How the results depend on the processing

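Each density ratio stayed above 1 in every alternative tried. All of these lists come from the same 2 libraries, and the chromosome was chosen for its peak count. Ratios above 1 were therefore to be foreseen and are no independent support for the excess. With the stronger 50% of optimal peaks the ratios per Mb were 2.71 for all peaks and 3.51 for promoter peaks, the ratio per TSS was 1.66, the 10 densest bins held 31.6% of the excess and 48.5% of chromosome 11 genes had a peak within 10 kb. With the mm9 list the first 3 were 2.70, 3.64 and 1.68. There the promoter peaks were set by all GENCODE transcript starts and the last ratio by GENCODE genes, so the definitions differ too. The conservative set gave 2.76 for promoter peaks and 59.3% of genes. Promoter windows of 500 bp and 2 kb gave 2.49 and 2.79, and distal peaks over 50 kb gave 1.50. Further TSSs of the promoter table, an alternative chosen after seeing the data, gave 2.76 for promoter peaks. With all RefSeq genes the ratio per gene was 1.87. The share of the excess in the densest bins was 39.0% with 500 kb bins (the 20 densest), 25.2% with 2 Mb bins (the 5 densest), 31.6% with bins shifted by 500 kb and 32.2% with the expected count by gene number. Genes with a peak were 42.9% within 1 kb and 87.4% within 50 kb. The MEF2 element was at 2.83% of mm9 peaks in strict form, 8.72% by core alone and 6.97% within 100 bp. Leaving out either replicate meant taking the 31497 strongest intervals of the other, as given above, and no peaks were called anew. This gave 2.46 to 2.66 for all peaks, 2.68 to 2.71 for promoter peaks and 2.13 to 2.33 for distal peaks. It also gave 1.51 to 1.63 per TSS, 30.0% to 30.7% of the excess and 64.3% to 65.1% of genes. Apart from settings that narrow or widen a window, bin or motif by construction, the cause of these shifts was not tested. Reference chromosome lengths of mm10 were not used here, so that alternative was not run. No paired analysis was possible because the series has 1 group. Read depth is unknown, and DNA copy number per chromosome was not measured in the lists used.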

Other observations

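The excess grew along the chromosome. The 37 bins below 40 Mb held 570 peaks (15.4 per bin) and 5.72% of the net excess, the 40 bins from 40 to 80 Mb held 1329 (33.2 per bin, 38.7%), and the 42 bins beyond 80 Mb held 1723 (41.0 per bin, 55.6%). TSSs per bin were 5.54, 16.0 and 17.8. Against bins of the other autosomes with like numbers of TSSs, the counts were 1.63, 1.87 and 2.16 times the reference, and relaxed intervals outside optimal peaks were 1.92, 1.92 and 2.10 times theirs. The limits of these stretches were chosen after the data were seen.

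Bins without optimal peaks were not empty of weak intervals. The bin at 25 to 26 Mb, with no TSS, held 118 relaxed intervals outside optimal peaks, and the bin at 47 to 48 Mb, with 1 TSS, held 108. In the other 12 such bins the number ran from 10 to 55.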
